A study of Homo sapiens with 5 samples.

Results

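The genes of the proteasome, its activators and its assembly factors were measured by sequencing the total RNA of MDA-MB-231, a breast cancer line of the triple-negative, mesenchymal-like kind. They were taken by name, as each listed gene whose symbol is PSMA to PSMG with a number, or POMP, which gave 37 of the 4202 genes of the deposited table. Other genes of these families are not analysed here. The 37 were 5 alpha and 7 beta subunits of the core (PSMA, PSMB), 6 ATPases of the base (PSMC), 11 members of the lid, receptor and base chaperone group (PSMD), 4 activators (PSME) and 4 assembly factors (PSMG, POMP). The cells were kept for 4 h as mock, or given CGI-1746, LU-102, both of them, or bortezomib, and each of these 5 conditions has 1 library. CGI-1746 is named a BTK inhibitor and an allosteric inhibitor of the proteasome in the title of the series, LU-102 is known as an inhibitor of the trypsin-like site, and bortezomib is a proteasome inhibitor that mainly blocks the chymotrypsin-like site. The sources used here give neither the doses, nor what the mock cells received, nor how many cultures went into a library. With 1 library per condition no difference below has a replicate error or a test, and differences between cultures and between treatments cannot be told apart.

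The proteasome degrades proteins tagged with ubiquitin. Its core is a barrel of alpha and beta rings with the proteolytic sites inside, and its regulatory particle has a base of ATPases that unfold substrates and a lid that removes ubiquitin. When proteasomes are inhibited, many cells raise the transcription of proteasome genes through NFE2L1 (NRF1), a transcription factor that is otherwise degraded and that binds antioxidant response elements together with small MAF proteins. The series used bortezomib as its control for pathways that proteasome inhibition changes, so the same 37 genes can be set beside each other in all treatments.

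The promoters are shown first, because that response runs through them. RefSeq promoter sequences (GRCh38.p14, 250 bases before to 50 after the gene start) matched 32 of the 37 symbols. The motif TGACNNNGC, the core of the antioxidant response element, was searched on both strands and was found in 9 of the 32 (28.1%), against 13.6% of all 27305 promoters and 17.2% of the 3338 promoters of listed genes. CCAAT, a motif bound by NF-Y, was found on either strand in 16 of the 32 (50%), against 35.7% and 39.7%. The bases from -250 to -21 of 4 promoters are printed 5′ to 3′ on the strand of the gene, with matches to TGACNNNGC in capitals. PSMB3 (chr17:38752491-38752720, plus strand) and PSMD3 (chr17:39980557-39980786, plus strand) were far lower with bortezomib, PSMD12 (chr17:67366598-67366827, minus strand) less so, and PSMB5 (chr14:23035241-23035470, minus strand), which encodes the main target of bortezomib, has no match to TGACNNNGC in its window.
PSMB3: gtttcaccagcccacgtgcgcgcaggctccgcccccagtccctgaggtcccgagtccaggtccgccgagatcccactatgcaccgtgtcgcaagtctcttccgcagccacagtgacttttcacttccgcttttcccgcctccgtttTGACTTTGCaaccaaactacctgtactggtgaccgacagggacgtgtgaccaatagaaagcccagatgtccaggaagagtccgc
PSMD3: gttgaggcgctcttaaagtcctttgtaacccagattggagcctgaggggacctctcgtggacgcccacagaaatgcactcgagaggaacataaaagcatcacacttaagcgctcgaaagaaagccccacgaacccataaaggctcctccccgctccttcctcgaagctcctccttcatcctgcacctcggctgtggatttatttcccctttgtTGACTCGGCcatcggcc
PSMD12: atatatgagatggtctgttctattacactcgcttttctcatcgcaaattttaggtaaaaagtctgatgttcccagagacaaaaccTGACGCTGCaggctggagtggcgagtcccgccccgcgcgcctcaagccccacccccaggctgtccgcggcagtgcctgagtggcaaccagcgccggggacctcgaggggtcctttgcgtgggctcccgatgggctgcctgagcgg
PSMB5: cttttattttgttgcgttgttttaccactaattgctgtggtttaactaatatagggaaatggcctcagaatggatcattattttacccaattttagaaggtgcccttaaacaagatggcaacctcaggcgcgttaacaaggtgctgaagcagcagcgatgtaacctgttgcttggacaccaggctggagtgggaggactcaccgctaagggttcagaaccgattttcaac

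In PSMB3 the match TGACTTTGC begins at -104, in PSMD3 TGACTCGGC at -37, and in PSMD12 TGACGCTGC at -165. PSMD3 holds a second match, on the opposite strand at 34 after the start. The other 6 promoters with a match are those of PSMC4, PSMD5, PSME1, PSME2, PSME4 and PSMG1. A match is only a description of the letters, and binding was not measured.

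The levels are the authors' least squares means, whose scale is not stated; at low values they step as reads per base of gene, times a constant of the library. In mock the 37 levels ran from 1.30 for PSMG4 to 44.1 for PSMB4, with a median of 3.9998 against 3.05 for all genes. The median of the 37 was 3.71 for CGI-1746, 3.92 for LU-102, 4.71 for their combination and 0.712 for bortezomib. Summed over the 37, levels came to 269 in mock, 272 for CGI-1746, 271 for LU-102, 299.5 for both and 64.3 for bortezomib. Levels of 1 or more were reached by 37 of the 37 in each library but that of bortezomib, where 15 did (40.5%, against 53.1% of all genes there). The plot of levels by gene shows the bortezomib library below the other 4 for every one of the 37, which was also the case for 90.9% of all genes. The combination library was the highest of the 5 for 28 of the 37, against 41.7% of all genes.

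**Figure D1:**
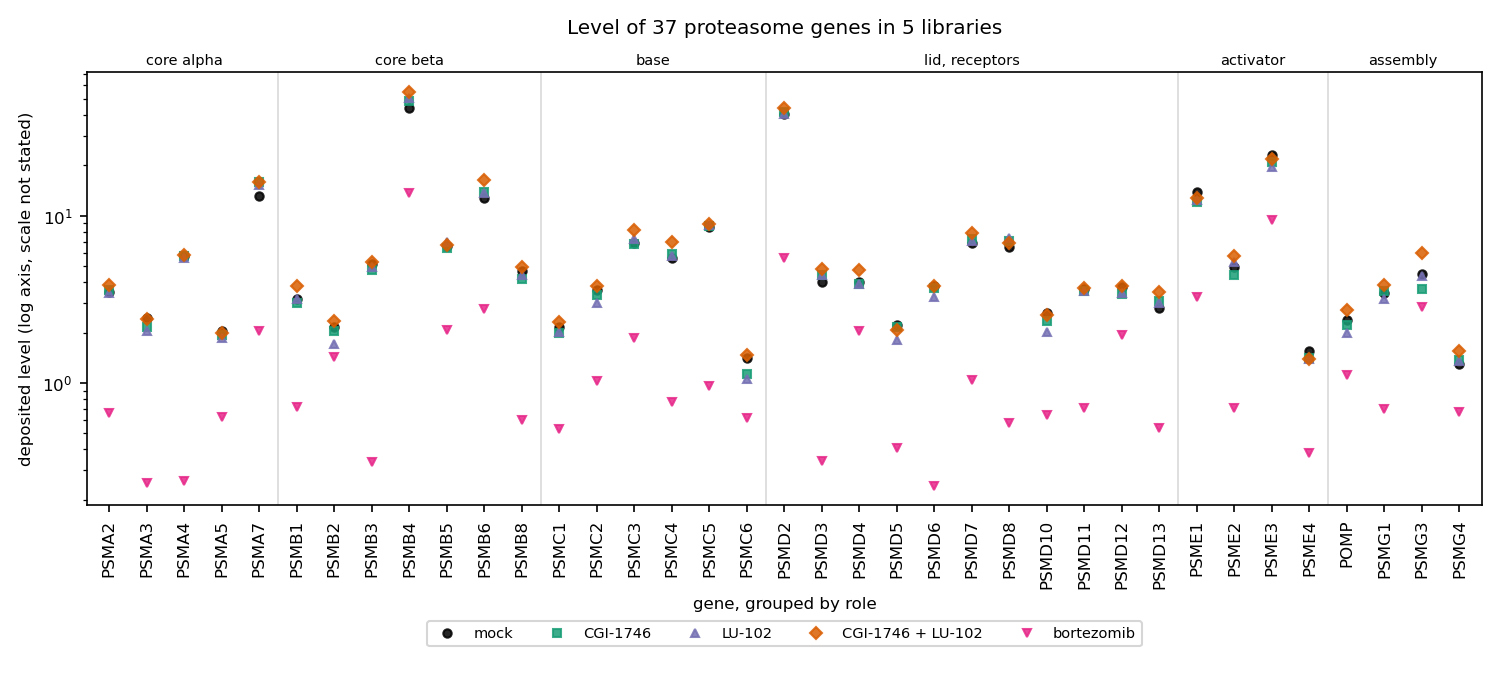
Deposited level (log axis, scale not stated) of each of the 37 proteasome genes, grouped by role along the horizontal axis, with 1 point for each of the 5 libraries and no error bars since each condition has 1 library. The bortezomib point is the lowest for every gene, and PSMB4, PSMD2 and PSME3 stand highest in mock, at 44.1, 40.2 and 22.9.

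Read numbers are known only roughly. From short RNA genes, 1 read adds about 59.4 to level times base pairs in mock and 53.8 with bortezomib. With the transcript of median length in GENCODE 29, the 37 genes would rest on about 18 to 1743 reads in mock (median 99.6) and on a median of 22.6 with bortezomib, where the fewest were about 3.7 for PSMA4. Intervals given below as rough are exact Clopper-Pearson intervals at 95% on such read numbers. They cover counting error only, move with the transcript length assumed, and hold for the deposited scale. With median-of-ratios scaling, levels are divided by 1.23 for the combination and 1.14 for mock. Ratios of combination to mock and their intervals would then lie lower, and some that exclude 1 would include it. Of 185 rough intervals outside the bortezomib library, 13 did not include a ratio of 1. At 95% some of the 185 are expected to exclude 1 from counting error alone, and they share their libraries. The labelled line was checked on its markers: all 8 mesenchymal-like genes were listed, with VIM at 92.1 and AXL at 17.7 in mock, along with 3 of 7 luminal genes, the keratins KRT18, KRT19 and KRT8 at 35.5, 12.1 and 2.02, and 1 of 3 blood genes, CD74 at 2.33. Luminal and blood genes beyond these are not analysed here. Over all genes the levels of a library summed to between 99255 and 135512.

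Differences are given on log2(level + 1), which understates those of low genes, for genes whose level reached 1 in at least 1 of the libraries compared. A difference of 1.2-fold is 0.26 on this scale. Counts past 1.2-fold and past 2-fold are set beside the share of all genes past the same fold.

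Neither CGI-1746 nor LU-102 alone went with more than small differences in proteasome genes. With CGI-1746 the median of the 37 was -0.03 against -0.02 for all 4186 genes compared, with 14 above 0 and 23 below (37.8% above, against 43.3% of all genes). None of the 37 was 1.2-fold higher (background 2.68%) or lower (2.15%), and none was 2-fold higher (0.119%) or lower (0.0478%). With LU-102 the median was -0.04 against -0.06 for all 4193 genes, and 15 of the 37 were above 0 (40.5%, against 35.8%). Here none was 1.2-fold higher (3.34% of all genes) and 1 was lower (2.7%, against 3.91%), with none 2-fold higher (0.0715%). Both medians are too near 0 to have a firm sign: with genes of level 5 or more they were 0.03 and 0.04, and that of LU-102 was 0.02 once differences were adjusted for GC content, length and level.

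With both inhibitors together the median of the 37 was 0.08 as deposited, against 0.03 for all 4189 genes, and -0.01 against -0.05 with median-of-ratios scaling. As deposited, 30 of the 37 lay above 0 (81.1%, against 57.8% of all genes), and 24 lay above the all-gene median. The 4 genes at 1.2-fold or more were PSMB4, PSMB6, PSMC4 and PSMG3. They are 10.8% of the 37, against a background of 9.48%, so the share past this fold was near that of all genes. With median-of-ratios scaling none of the 37 was 1.2-fold higher (4.4% of all genes), and with plain ratios 7 were (16.4% of all genes). None was 1.2-fold lower as deposited (background 2.51%), and none was 2-fold higher (0.167%) or lower (0.0477%).

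**Figure D2:**
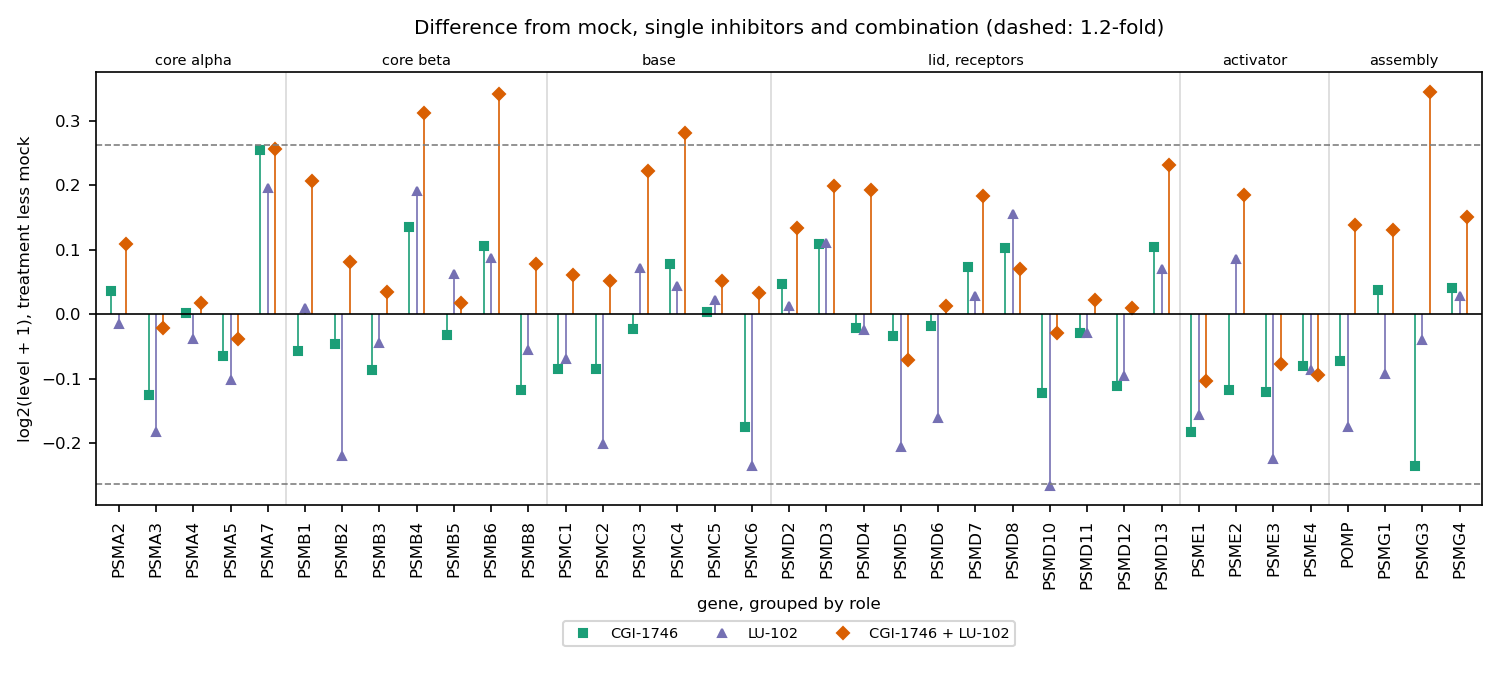
Difference from mock on the log2(level + 1) scale for each of the 37 genes, with 1 point for CGI-1746, LU-102 and the combination (1 library each, no error bars) and dashed lines at 1.2-fold. As deposited, the combination points pass the upper line for PSMB4, PSMB6, PSMC4 and PSMG3, and with median-of-ratios scaling none of the 37 passes it.

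The combination's differences moved with GC content. Across the 37 genes the log2 ratio of levels, combination over mock, had a Spearman correlation of 0.46 and a Pearson correlation of 0.45 with log2 GC content of the transcript, and across 4139 genes the Spearman correlation was 0.57. Genes share the same 2 libraries, so these are descriptions. Once adjusted for GC content, transcript length and level, the median of the 37 was 0.13 against 0.03 for all genes, with 29 of the 37 above the all-gene median. PSMG3, the highest of the 37 with the combination, also had the highest GC content of them, 60.5%. The part of GC content in the differences of single genes was not tested.

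**Figure D3:**
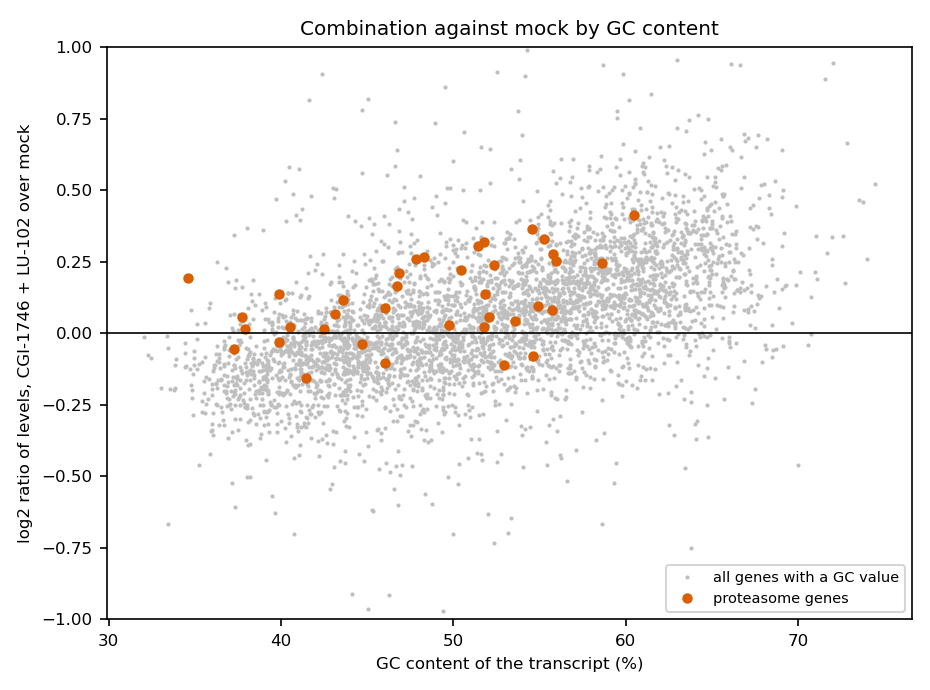
Log2 ratio of levels, combination over mock, against GC content of the transcript in percent, with 1 point per gene (37 proteasome genes over all genes with a GC value; 20 genes lie outside the vertical range). Ratios run higher at higher GC content in both sets, with Spearman correlations of 0.46 over the 37 and 0.57 over 4139 genes.

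With bortezomib each of the 37 was lower than in mock as deposited, at a median of -1.43 against -0.98 for all 4189 genes. None was above 0, as 7.81% of all genes were, or 1.2-fold higher (4.7%) or 2-fold higher (1.38%). All 37 were 1.2-fold or more lower, as were 86.6% of all genes, and 28 were 2-fold or more lower (75.7%, against 48.1% of all genes). The scale of the levels is not stated, so less RNA per cell and a shift of the whole library cannot be told apart. The highest level of any gene was 36441 with bortezomib, 18035 in mock, 26765 for LU-102, 24837 for both inhibitors and 17813 for CGI-1746. Against mock, the median of all genes was -0.06 for LU-102 and 0.03 for both inhibitors. The cause of the common shift with bortezomib was not tested. Relative to the all-gene median the median of the 37 was -0.45. On that footing 23 were 1.2-fold or more lower (32.1% of all genes) and 6 higher (32.6%), and 6 were 2-fold or more lower (7.83%) and none 2-fold higher (7.52%). With median-of-ratios scaling the median was -0.85 against -0.44, 14 of the 37 were 2-fold lower against 17.4% of all genes, and 4 genes lay above 0: PSMB2, PSMD12, PSMG3 and PSMG4. Adjusted for GC content, length and level, the median was -1.16 against -0.98 and 24 were 2-fold lower, against 48.3% of all genes, so the gap to all genes was smaller. In the authors' deposited table, whose p-values rest on 1 library per condition, 2 of the 37 (PSMD2 with an FDR of 0.000442 and PSMB4 with 0.00415) were under 0.05 with bortezomib, against 5.69% of all genes, and none was in the other 5 comparisons. The shares of all genes under 0.05 in that table were 0.0714% for CGI-1746, 0.167% for LU-102 and 0.333% for the combination against mock, and 0.286% for the combination against LU-102 and 0.286% against CGI-1746.

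**Figure D4:**
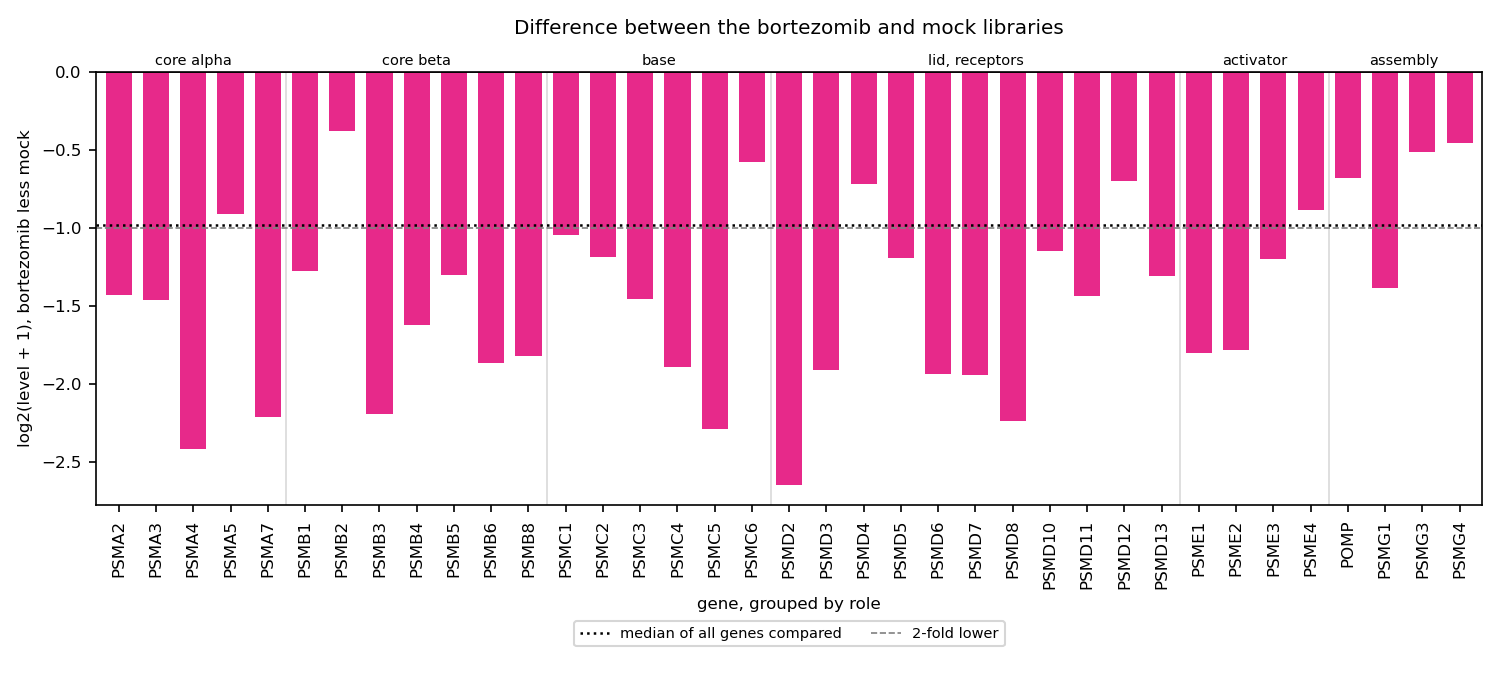
Bars give the difference between the bortezomib and mock libraries on the log2(level + 1) scale for each of the 37 genes, grouped by role (1 library each, no error bars), with a dotted line at the median of all genes compared (-0.98) and a dashed line at 2-fold lower. The bars run from -0.38 for PSMB2 to -2.65 for PSMD2 as deposited, and 9 of them end above the dotted line, 3 of these in the assembly group. This scale understates the differences of low genes.

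The alpha subunits form the outer rings of the core, through which substrates enter. Levels are given from here on in the order mock, CGI-1746, LU-102, combination and bortezomib. PSMA7 had levels of 13.1, 15.9, 15.2, 15.9 and 2.05. It was the highest of the 37 against mock with CGI-1746 and with LU-102 as deposited, and its differences in the 3 non-bortezomib treatments were 0.25, 0.20 and 0.26, with the combination just under 1.2-fold; its rough interval of the ratio for the combination was 1.0008 to 1.46. PSMA3 had levels of 2.45, 2.16, 2.04, 2.40 and 0.253, so both single inhibitors were below mock and the combination near it. PSMA5 had 2.05, 1.92, 1.85, 1.98 and 0.624, close to mock in all but the bortezomib library. PSMA4 (chromosome 15, 78540405 to 78552417) had 5.73, 5.74, 5.56, 5.82 and 0.260. Its level with bortezomib was 4.53% of mock, the lowest percentage of the 37, on about 4 reads against 75. The 5 alpha genes had a median of 0.02 with the combination, near the 0.03 of all genes, and of -1.46 with bortezomib.

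The beta subunits hold the proteolytic sites. PSMB5 (chromosome 14, 23025851 to 23035220), the chymotrypsin-like subunit, had levels of 6.57, 6.40, 6.91, 6.66 and 2.08. Its differences from mock were -0.03, 0.06 and 0.02 in the first 3 treatments, and -1.30 with bortezomib, which blocks this subunit. PSMB8, the chymotrypsin-like subunit of the immunoproteasome, had 4.65, 4.20, 4.43, 4.96 and 0.597, which left 12.9% of the mock level with bortezomib where PSMB5 kept 31.6%. The rough intervals of these ratios overlapped, at 0.0615 to 0.227 for PSMB8 and 0.209 to 0.47 for PSMB5. They rest on about 12 and 35 reads with bortezomib. PSMB6 (chromosome 17, 4796164 to 4798495), the caspase-like subunit, had 12.8, 13.8, 13.6, 16.4 and 2.78. The combination was the highest library for it, at 0.34 on the log2 scale, with a rough interval of the ratio of 1.06 to 1.57 on about 243 reads against 187.

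Of the non-catalytic beta subunits, PSMB4 (chromosome 1, 151399573 to 151401937) had the highest level of the 37, at 44.1, 48.5, 50.5, 55.0 and 13.6. The 3 non-bortezomib treatments were all above mock, and the ratio of combination to mock was 1.25 with a rough interval of 1.13 to 1.38 on about 901 against 716 reads. PSMB2 (chromosome 1, 35599541 to 35641526) had 2.15, 2.06, 1.71, 2.34 and 1.42. It kept 66.1% of its mock level with bortezomib, the most of the 37, and was lowest with LU-102 among the other 4 libraries. PSMB3 had 5.11, 4.76, 4.93, 5.26 and 0.337, which was 6.59% of mock with bortezomib. PSMB1 had 3.16, 3.002, 3.19, 3.81 and 0.715. All 7 beta genes lay above 0 with the combination as deposited, at a median of 0.08.

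The PSMC genes encode the ATPases of the base, which unfold substrates and open the core. PSMC4 (chromosome 19, 39971165 to 39981764) had levels of 5.55, 5.92, 5.75, 6.97 and 0.765, the highest of the 6 against mock with the combination at 0.28, with a rough interval of the ratio of 1.003 to 1.56. PSMC3 had 6.85, 6.73, 7.25, 8.16 and 1.86, again with the combination highest. PSMC5 had 8.59, 8.61, 8.74, 8.94 and 0.959, which were close together except with bortezomib at 11.2% of mock. PSMC6 had 1.41, 1.14, 1.05, 1.47 and 0.618. Each single inhibitor was below mock for it, at -0.17 and -0.23, and the combination at 0.03. All 6 ATPases lay above 0 with the combination as deposited, at a median of 0.06, and PSMC1 and PSMC2 were within the ranges of the other 4. With bortezomib the 6 ran from -2.29 to -0.57 with a median of -1.32.

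The PSMD genes encode the lid, the ubiquitin receptors and scaffolds of the base, and base chaperones. PSMD2 (chromosome 3, 184299241 to 184309050), a large scaffold of the base that receives shuttle factors, had levels of 40.2, 41.6, 40.6, 44.2 and 5.59. Its difference with bortezomib, -2.65, was the widest of the 37 on log2(level + 1), a scale that understates the differences of low genes. As a share of mock it kept 13.9%, more than lower genes such as PSMA4 at 4.53%. The ratio of combination to mock for PSMD2 was 1.10 on the deposited scale, with a rough interval of 1.03 to 1.17, on the most reads of the 37. PSMD12, a lid subunit, had 3.74, 3.39, 3.44, 3.78 and 1.92 and kept 51.3% of mock with bortezomib. PSMD4, a ubiquitin receptor, had 3.9998, 3.93, 3.92, 4.71 and 2.04 and kept 51.0%. These 2 were the PSMD genes that lay above the all-gene median with bortezomib.

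Other lid subunits were much lower with bortezomib. PSMD3 had levels of 4.04, 4.43, 4.44, 4.78 and 0.342, or 8.46% of mock in the last library. PSMD8 had 6.46, 7.02, 7.31, 6.83 and 0.580, or 8.97%, and LU-102 was its highest library. These 2 lid genes differ in their highest library, but the rough intervals of the ratio of combination to LU-102 included 1 for both. They were 0.744 to 1.17 for PSMD8 and 0.862 to 1.34 for PSMD3. PSMD6 had 6.46% of mock with bortezomib, at 0.244 against 3.77. PSMD13 had 2.82, 3.11, 3.01, 3.48 and 0.541, the highest of the 11 with the combination at 0.23.

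Base chaperones assemble the ATPase ring. PSMD10, also called gankyrin, had levels of 2.63, 2.34, 2.02, 2.56 and 0.643. It was the 1 gene of the 37 past 1.2-fold lower with LU-102, at -0.27, a place it lost with median-of-ratios scaling and with a pseudocount of 5. PSMD5 had 2.23, 2.15, 1.80, 2.07 and 0.408, also lowest with LU-102 among the first 4. The remaining members, PSMD7 and PSMD11, lay between -0.03 and 0.18 in the 3 non-bortezomib treatments. Over the 11 PSMD genes the medians were 0.07 with the combination and -1.44 with bortezomib.

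The PSME genes encode activators that cap the core in place of the regulatory particle. PSME1 and PSME2 encode the cytosolic activator that interferon gamma induces, and lie near each other on chromosome 14 (24136194 to 24138962 and 24143365 to 24146610). PSME1 had levels of 13.8, 12.1, 12.3, 12.8 and 3.25, with every treatment below mock. PSME2 had 4.90, 4.44, 5.27, 5.71 and 0.712, below mock with CGI-1746 and above it with LU-102 and the combination. The partners did not keep the same order of libraries, but outside bortezomib the rough intervals of their ratios to mock all included 1. Those of PSME2 were 0.624 to 1.33 with CGI-1746 and 0.820 to 1.66 with the combination. PSME3, the nuclear activator, had 22.9, 21.0, 19.4, 21.7 and 9.43, and its ratio of LU-102 to mock was 0.849 with a rough interval of 0.747 to 0.965. PSME4, a large nuclear activator, had 1.54, 1.40, 1.40, 1.38 and 0.379. Of the 4 activators 3 were below 0 with the combination as deposited, where 7 of the 37 were, and their median was -0.09.

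The assembly factors build the core from its subunits. PSMG3 (chromosome 7, 1567332 to 1570032), part of a chaperone pair for the alpha ring, had levels of 4.49, 3.66, 4.34, 5.97 and 2.85. It was lowest with CGI-1746 among the first 4 libraries and highest with the combination, with differences from mock of -0.24 and 0.35. The rough intervals of these ratios to mock, 0.579 to 1.16 and 0.979 to 1.81, both included 1. Its partner PSMG4 had 1.30, 1.36, 1.34, 1.55 and 0.673 and did not show the low value with CGI-1746. POMP, which guides the beta ring, had 2.39, 2.22, 1.999, 2.73 and 1.11, lowest with LU-102 and highest with the combination among the first 4. PSMG1, of the other alpha ring chaperone pair, had 3.44, 3.56, 3.17, 3.86 and 0.701, with the same lowest and highest library.

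All 4 assembly genes lay above the all-gene median with the combination, at a median of 0.15 as deposited. With bortezomib PSMG3 kept 63.5% of mock, PSMG4 51.9%, POMP 46.7% and PSMG1 20.4%. Their median with bortezomib was -0.60, against -1.46 for the other 33 genes of the 37 and -0.98 for all genes. This gap was not tested, since the groups were read in the same 2 libraries and hold 4 and 33 genes. The 4 had a median mock level of 2.91 against 4.04 for the 33, and log2(level + 1) understates the differences of low genes. PSMG4 rests on about 10 reads against 18, and its rough interval of the ratio of bortezomib to mock, 0.207 to 1.15, included 1.

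The combination was also set against each single inhibitor. When CGI-1746 was added to LU-102, the median of the 37 was 0.13 against 0.08 for all 4193 genes, and 34 of the 37 were above 0 (91.9%, against 80.0% of all genes). The 4 genes at 1.2-fold or more were POMP at 0.31, PSMB2 at 0.30, PSMC6 at 0.27 and PSMG3 at 0.39, or 10.8% against 6.25% of all genes, and none was 1.2-fold lower (1.34%) or 2-fold higher (0.143%). When LU-102 was added to CGI-1746, the median was 0.11 against 0.04, and 34 were above 0 (91.9%, against 66.8%). Here PSMG3 at 0.58, PSME2 at 0.30 and PSMB1 at 0.26 passed 1.2-fold, or 8.11% against 6.46%, with none 1.2-fold lower (1.05%), 2-fold higher (0.0715%) or 2-fold lower (0.0238%). With median-of-ratios scaling these medians were 0.03 and 0.0034, against -0.02 and -0.06 for all genes. In each, 1 gene of the 37 was then 1.2-fold higher, against 1.73% and 2.11% of all genes. The ratio of PSMG3 in the second comparison was 1.63, with a rough interval of 1.17 to 2.25 on about 102 reads against 63.

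Departure from additivity takes the combination's difference from mock and subtracts the differences of CGI-1746 and of LU-102. Its median over the 37 was 0.17 against 0.10 for all 4197 genes, and 32 lay above 0 (86.5%, against 75.9%). Departures of 1.2-fold or more upward were seen in 8 of the 37 (21.6%, against 12.3% of all genes) and downward in none (2.29%), and none passed 2-fold upward (0.0715%) or downward (0.0715%). The highest were PSMG3 at 0.62, PSMC6 at 0.44, POMP at 0.39, PSMD10 at 0.36, PSMB2 at 0.35 and PSMC2 at 0.34, and the lowest were PSMA7 and PSMD8 at -0.19. The 6 high genes were below mock with each single inhibitor, while PSMA7 and PSMD8 were above mock with each. The departure subtracts these single differences, so picking its extremes favours such genes, and the pattern is no separate result. With median-of-ratios scaling the median was 0.02 against -0.03 and 2 of the 37 were past 1.2-fold upward, against 2.06% of all genes. The comparisons in this layout share their libraries, so one high or low library moves several of them at once.

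Genes around the proteasome were read from a fixed list. Of 21 proteasome-associated genes 13 were listed, and their median was 0.06 with the combination and -1.20 with bortezomib. ADRM1, a ubiquitin receptor of the base, had levels of 7.72, 8.02, 9.48, 9.79 and 1.52. It was the 1 gene of the 13 past 1.2-fold with LU-102, at 0.26 (3.34% of all genes), and with the combination, at 0.31 (9.48%). The GC content of its transcript was 64.3%, above the 60.5% of PSMG3, and the part of GC content in these differences was not tested. VCP, the segregase that feeds the proteasome, had 25.3, 24.8, 23.7, 28.5 and 17.6. Its difference with bortezomib was -0.50 before and 0.43 after median-of-ratios scaling. ZFAND2A, a stress-induced proteasome adaptor, was near mock with bortezomib at 1.22 against 1.16, while 11 of the 13 were 1.2-fold or more lower there (86.6% of all genes) and 9 were 2-fold lower (48.1% of all genes), the first share being near that of all genes.

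Of 11 genes of proteasome gene transcription 7 were listed. NFE2L1 had levels of 16.2, 17.8, 16.4, 17.6 and 5.46, with bortezomib at -1.42. MAFG, one of its small MAF partners, had 7.67, 8.20, 8.76, 9.49 and 5.97. At 0.28 it was the 1 gene of the 7 past 1.2-fold with the combination, against 9.48% of all genes. NFE2L2 and KEAP1, the related factor NRF2 and its repressor, were at -1.20 and -1.02 with bortezomib, and NFYA at -1.41. MAFF was near mock there, at 1.82 against 1.96. Of the 7 genes 6 were 1.2-fold lower with bortezomib as deposited (86.6% of all genes) and 4 were 2-fold lower (48.1%), shares near those of all genes. The 9 members with TGACNNNGC in the promoter had a median of -1.79 with bortezomib and 0.03 with the combination, and the 23 with a promoter but no match had -1.43 and 0.06; this split was not tested.

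Cytosolic ribosomal protein genes give another set of housekeeping genes in the same libraries, at a median mock level of 27.6 against 3.9998 for the 37. The 78 listed had medians of 0.08 with the combination and -1.995 with bortezomib. The 37 proteasome genes, at 0.08 and -1.43, thus had the same median as ribosomal protein genes with the combination at 2 decimals and a less negative one with bortezomib, differences that were not tested. Since log2(level + 1) understates the differences of low genes, the gap with bortezomib cannot be read as a smaller drop of proteasome genes. Among the 37, 18 have pseudogenes named after them in RefSeq, with 13 for PSMC1, so reads of those genes could be shared with copies.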

How the data were processed

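Sequencing of total RNA gave 5 libraries of MDA-MB-231 cells, 1 per condition, after 4 h. The submitters' processing notes name Partek and hg38, and the sources used here do not name an aligner, annotation, filter, strand setting or scaling. Per gene and library the authors deposited a signal, named a least squares mean in the header, for 4202 genes, and the 5 levels of a gene sum to at least 5.04. The deposited table also gives a ratio of levels, p-values and FDR values of the authors' own comparisons. Columns that repeat a library (7) were identical to those used. Groups came from the treatment labels.

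Differences were computed on log2(level + 1) for genes whose level reached 1 in at least 1 of the libraries compared, and counted at 1.2-fold and 2-fold. No test was run. Rough reads per gene came from level, transcript length (GENCODE 29) and the value of 1 read on short RNA genes, of which 24 of 29 in mock lay within 0.1 of whole units of 0.5 reads. GC content and length were available for 37 of 37 members and 4152 genes. Alternatives were a pseudocount of 5 or none, no filter, a minimum level of 5, median-of-ratios scaling over the 445 genes at 5 or more in each library, a regression on GC content, length and level, and centring on the all-gene median, the last chosen after seeing the data. The members and gene lists were chosen with earlier results of these data known. Named genes were the catalytic subunits, all activators and assembly factors, and the highest and lowest of each other role group against mock; PSMB1, PSMD4, PSMD6 and the genes named past a fold or for a departure were added after their values were seen. One further gene list of the design is not reported here. The scripts were tested on simulated data with known shifts. Versions were matplotlib 3.10.9, scipy 1.17.1, pandas 2.3.3, numpy 2.4.6 and Python 3.11.15.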

Additional observations from a re-analysis of the deposited data

How the results depend on the processing

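Each condition has 1 library, so no replicate could be left out. No paired analysis was possible because the comparisons come from no test and each condition has 1 library. The median of the 37 genes with bortezomib, -1.43, stayed below 0 under the alternatives run: -0.60 with a pseudocount of 5, -2.20 without one, -1.92 with a minimum level of 5 (14 genes), -0.85 with median-of-ratios scaling, -1.16 adjusted for GC content, length and level, and -0.45 less the all-gene median. Relative to the all-gene median it was -0.21 with a pseudocount of 5, -0.57 without one and -0.17 after that adjustment. The 28 genes 2-fold lower became 8 with a pseudocount of 5 (11.6% of all genes) and 32 without one (72.4%). They became 14 with median-of-ratios scaling (17.4%) and 6 centred on the all-gene median (7.83%). With a minimum level of 5 they became 14 of the 14 compared (69.7%). Each of these 14 passed the minimum through its mock level, which favours lower values with bortezomib. Their count and their median of -1.92 are therefore no separate support. With median-of-ratios scaling the median of CGI-1746 added to LU-102 was 0.028, against -0.017 for all genes. That of LU-102 added to CGI-1746 was 0.0034 against -0.060, and that of the departure 0.019 against -0.029. Less the all-gene median, without that scaling, the median of the departure was 0.068. The cause of these changes was not tested.

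Some genes 1.2-fold or more lower with bortezomib as deposited turned above 0; genes nearer mock, such as MAFF and UBLCP1, are not listed. With median-of-ratios scaling PSMB2 was 0.25, PSMD12 0.0050, PSMG3 0.25, PSMG4 0.011, VCP 0.43, MAFG 0.54 and MAFK 0.16. Adjusted for GC content, length and level, VCP was 0.21 and MAFG 0.13. Less the all-gene median PSMA5 was 0.068, PSMB2 0.60, PSMC6 0.40, PSMD4 0.26, PSMD12 0.28, PSME4 0.10, POMP 0.30, PSMG3 0.47, PSMG4 0.52, NPLOC4 0.014, VCP 0.48, MAFG 0.67 and MAFK 0.54.

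Counts past 1.2-fold were small and moved with the setting. For the combination against mock 4 became 2, 7, 0 and 2 with a pseudocount of 5, none, median-of-ratios scaling and adjustment. The shares of all genes were then 2.86%, 16.4%, 4.4% and 4.88%. For CGI-1746 added to LU-102, 4 became 0 with a pseudocount of 5 (1.57% of all genes) and 10 with none (14.0%). They became 1 with a minimum level of 5 (10.1%), median-of-ratios scaling (1.73%) or centring (2.22%). For LU-102 added to CGI-1746, 3 became 1 with a pseudocount of 5 (1.93% of all genes) and 7 with none (11.7%). They became 1 with median-of-ratios scaling (2.11%) or centring (4.01%), and 5 after adjustment (3.89%). With LU-102 the 1 lower gene became 5 without a pseudocount and 0 in the other settings but the one with no filter. With CGI-1746 the 0 higher became 1 without a pseudocount (6.04% of all genes), with median-of-ratios scaling (3.44%) or centring (3.25%). For CGI-1746 the 0 lower became at most 2. The shares of all genes 1.2-fold lower in these settings are not reported here. With bortezomib the 37 lower became 14 of the 14 compared with a minimum level of 5, genes that passed it through their mock level. The 37 became 23 when centred (32.1% of all genes), where 6 were higher (32.6%). Depth limits the low genes most: with bortezomib the 37 rest on a median of about 22.6 reads.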
